A study of Mus musculus with 6 samples.

Results

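*Rgs14*, *Slc34a1*, *Pfn3*, *F12* and *Grk6* are 5 neighboring genes on mouse chromosome 13, and the data described here are the FOXC2 ChIP-seq peaks around them in injured and control podocytes. Peaks were taken if they reached into the 10 kb on either side of the start of 1 of the 5 gene records (GENCODE M21 on GRCm38), and each was counted once. This gave 17 peaks of 81142 in both lists together, of which 13 of 40067 were ADR peaks and 4 of 41075 were PBS peaks. The genes had been chosen by the measured values themselves, because together, though not each, they held many ADR peaks and few PBS peaks. The number of peaks in each list and their fold are therefore given as a description, without a test.

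FOXC2 is a forkhead transcription factor that podocytes express and need. ChIP-seq finds the DNA that an antibody against it pulls down from fixed chromatin, and a peak is a stretch where this DNA exceeds the local control. *Slc34a1* encodes the sodium-dependent phosphate transporter NaPi-IIa of the proximal tubule brush border, which reclaims filtered phosphate, and is used as a marker of that segment. *Pfn3* encodes a profilin, a small actin monomer–binding protein, known mostly from testis. *F12* encodes coagulation factor XII, made in liver. *Grk6* encodes a kinase that phosphorylates active G protein–coupled receptors, and *Rgs14* encodes a regulator that shortens signaling by G protein alpha subunits. The human *RGS14* and *SLC34A1* region is known from association studies of kidney stones and serum phosphate.

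The ADR group consisted of mice with the mTmG reporter given adriamycin, a drug toxic to podocytes, at 18 mg/kg on days 0 and 7. The control group consisted of mice of the same strain given PBS. In both, the reporter gives podocytes a membrane GFP, and GFP-positive podocytes were sorted by FACS on day 9. Each group had 3 samples, but the authors pooled them into 1 peak list per group, so no value here has a replicate error and no test between ADR and PBS was possible. The read depth behind the lists is unknown, the ages are not given in the sources used here, and a change in the share of cells bound cannot be told apart from a change in binding per cell. Over the whole lists, the fold over the local control had a median of 7.42 in ADR and 6.53 in PBS. The 6 podocyte markers given here (*Nphs1*, *Synpo*, *Podxl*, *Wt1*, *Ptpro* and *Cdkn1c*) all had peaks within 10 kb in both lists, 1 to 7 each in ADR and 3 or 4 each in PBS. Of the 6, 1 had more ADR peaks, 3 had fewer and 2 had equal numbers. Among all coding genes with a peak within 10 kb in either list, 17.6% had more and 30.3% had fewer. The highest fold within 10 kb went another way than these numbers. It was higher in ADR than in PBS at *Nphs1* (34.48 against 13.35), *Podxl* (21.8 against 14.7), *Wt1* (30.13 against 13.18) and *Ptpro* (31.82 against 6.457). It was lower in ADR at *Synpo* (4.199 against 16.08) and *Cdkn1c* (18.5 against 19.17).

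Sequences at sites of the cluster are shown first, all from the plus strand of the GRCm38 reference, with matches to the motifs described further on in capitals. The first is the summit of the strongest ADR peak, inside the single exon of *Pfn3* (chr13:55415113-55415141). The second is the strongest peak found in ADR alone, at the end of coding exon 12 of *Slc34a1* (chr13:55412259-55412459), where the capitals mark a forkhead match. The third is the 100 bases before the start of the transcript Slc34a1-201 (chr13:55399593-55399692), within another peak of ADR alone and added after its position was seen. The fourth is the 1 peak of PBS alone, upstream of *F12* (chr13:55429360-55429560), with 2 KLF matches. The last is the strongest PBS peak, before *Grk6* (chr13:55444769-55444969), with 1 KLF match on the minus strand.
Pfn3 summit in ADR: atcgatccgctgatcccgcagcactgcac
Slc34a1 exon 12, ADR only: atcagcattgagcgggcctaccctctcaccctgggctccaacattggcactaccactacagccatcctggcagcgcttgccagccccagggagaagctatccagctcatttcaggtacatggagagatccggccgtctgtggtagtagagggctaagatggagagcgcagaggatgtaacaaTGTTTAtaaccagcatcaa
Slc34a1-201 promoter, ADR only: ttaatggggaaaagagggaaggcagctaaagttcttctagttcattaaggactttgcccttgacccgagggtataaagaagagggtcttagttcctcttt
F12 upstream, PBS only: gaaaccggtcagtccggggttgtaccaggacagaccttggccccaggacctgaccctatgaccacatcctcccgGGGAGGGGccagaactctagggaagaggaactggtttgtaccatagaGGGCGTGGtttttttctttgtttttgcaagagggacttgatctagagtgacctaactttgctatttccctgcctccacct
Grk6 promoter, PBS summit: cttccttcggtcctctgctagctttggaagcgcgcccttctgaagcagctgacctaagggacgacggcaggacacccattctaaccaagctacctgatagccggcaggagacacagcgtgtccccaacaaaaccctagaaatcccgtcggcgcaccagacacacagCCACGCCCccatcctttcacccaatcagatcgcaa

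Most ADR peaks of the cluster lay over *Slc34a1* and *Pfn3*, and *Grk6*, *Pfn3* and the window of *Rgs14* held peaks of both lists. Within 10 kb of its start, *Pfn3* had 9 ADR peaks and 1 PBS peak, and *Slc34a1* had 3 ADR peaks and 0 PBS peaks, with 1 ADR peak counted for both genes. *F12* had 0 ADR peaks and 1 PBS peak, *Grk6* had 1 peak in each list, and *Rgs14* had 1 peak in each list. With an ADR and a PBS peak joined wherever they had 1 bp or more in common, the 17 peaks formed 14 intervals, of which 10 held an ADR peak alone, 3 held peaks of both lists and 1 held a PBS peak alone. Thus 10 of the 13 ADR peaks overlapped no PBS peak, against 32.3% of all ADR peaks, and 1 of the 4 PBS peaks had no ADR counterpart, against 33.1% of all PBS peaks. Nothing is read from these shares, because the genes were chosen on them.

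**Figure D1:**
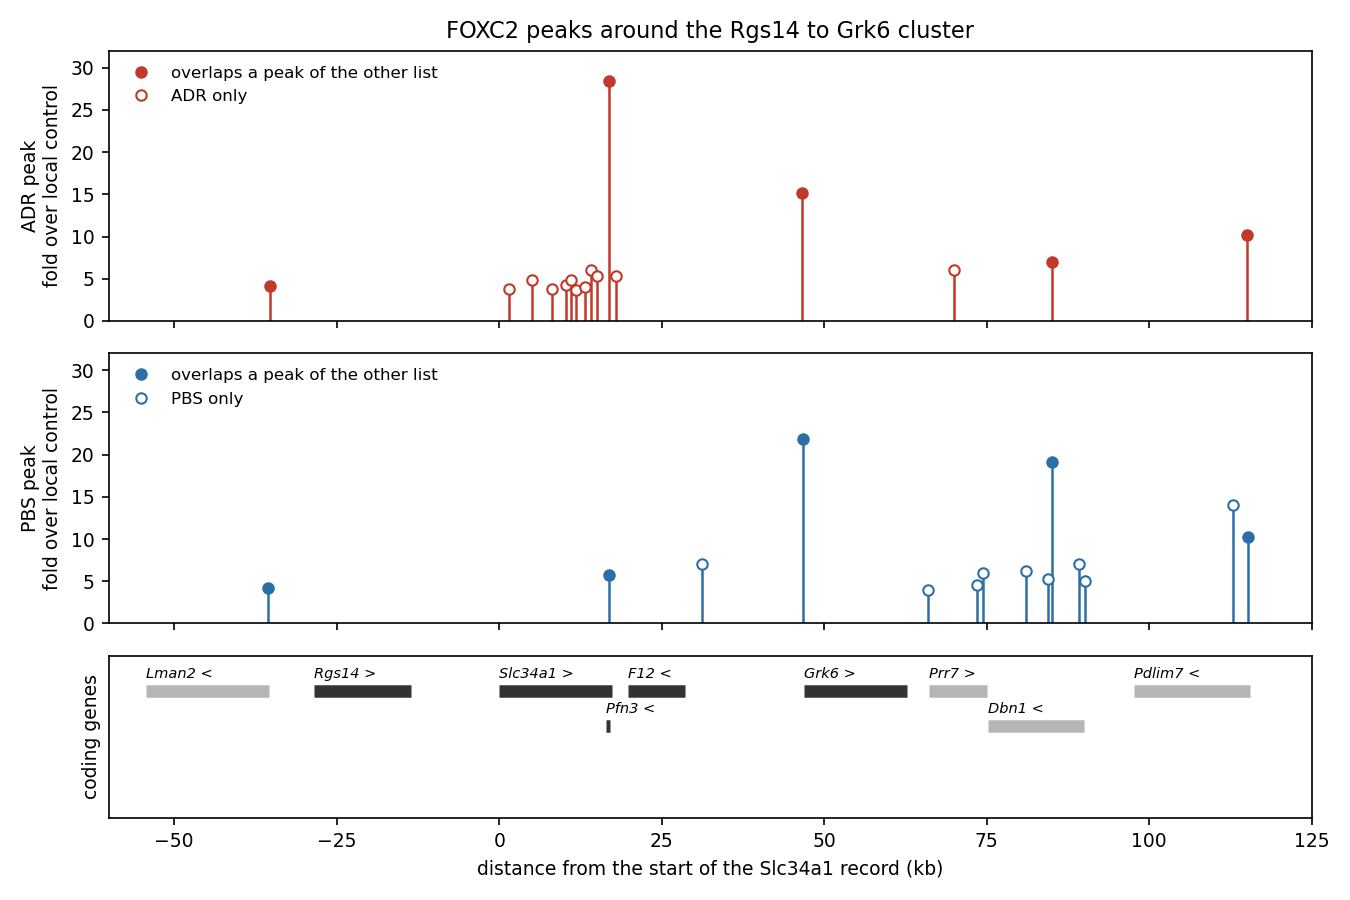
FOXC2 peaks of the ADR list (top) and of the PBS list (middle) by distance of the summit from the start of the *Slc34a1* record in kb, with height the fold over the local control, filled circles for peaks that overlap the other list, and coding genes below (dark for the 5 genes, arrowheads for strand). The 10 open ADR circles between 1.56 and 18.04 kb have folds of 3.69 to 6.003 and flank the ADR peak of 28.4 at *Pfn3*.

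The strongest ADR peak of the cluster lay on *Pfn3*. It was 1591 bp wide (positions 55414224 to 55415814), reached a fold of 28.4 with a −log10 q of 94.8, and 95.3% of all ADR peaks had a lower fold and 99.7% a smaller width. The PBS peak at the same place was 466 bp wide (55414903 to 55415368), reached a fold of 5.75 with a −log10 q of 7.51, and 39.4% of all PBS peaks had a lower fold. The ADR peak covered all 545 bp of the *Pfn3* record (positions 55414688 to 55415232, minus strand), and the PBS peak covered 330 bp, or 60.6%. The summits were 68 bp apart, 105 bp downstream of the *Pfn3* start in ADR and 173 bp in PBS, both in the *Pfn3* coding sequence. The same bases also belong to the 3′ UTR in the last exon of the longest *Slc34a1* transcript, Slc34a1-205, which runs on the opposite strand. Peaks carry no strand, so binding at *Pfn3* and at the end of *Slc34a1* cannot be told apart.

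On the log2 scale the fold at *Pfn3* was 2.30 higher in ADR than in PBS, a ratio of 4.94. Of all 26703 intervals with peaks of both lists, 0.816% had a difference at least as large. The genes were chosen by the measured values of these lists, so this share is no test. The fold of each peak is relative to its own local control and comes from a pool without replicates, so this difference has no error.

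*Slc34a1* itself (ENSMUSG00000021490.11, positions 55398187 to 55415592, plus strand) carried ADR peaks from one end to the other. Its 17.4 kb record held 10 ADR summits, including that at *Pfn3*, and 1 PBS summit, which was that at *Pfn3*. ADR peaks covered 33.5% of the record and PBS peaks covered 2.68%. The first peak (55399575 to 55399885, fold 3.77) spanned the start of Slc34a1-201, with its summit in the first intron. The PBS peak nearest to this start was 15210 bp away. The second (55403220 to 55403418, fold 4.87) had its summit in coding exon 8, and the third (55406186 to 55406424, fold 3.84) in an intron.

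The remaining peaks stood closer together, towards the end of the gene. Their summits lay 10.3, 10.99, 11.8 and 13.2 kb from the start of the record, with folds of 4.21, 4.89, 3.69 and 4.05, all in introns of the 3 protein-coding transcripts that reach them, the first also in an exon of the noncoding transcript Slc34a1-206. The next (55411883 to 55412656, fold 6.003) had its summit in coding exon 12, and that after it (55412942 to 55414172, fold 5.38) in coding exon 13, with a width of 1231 bp that exceeded 98.9% of all ADR peaks. Beyond *Pfn3*, a last peak (55416106 to 55416448, fold 5.28) was intergenic, and 93.5% of the 201 bases around its summit were marked as repeat in the reference, against at most 22.9% for the other ADR peaks of the cluster. In exons of any *Slc34a1* transcript lay 5 of its 10 ADR summits (50.0%, 95% Wilson interval 23.7% to 76.3%), while exons made up 26.9% of the record and 24.2% of all ADR summits in coding genes were in an exon of the gene. This interval covers counting error only, and neighboring peaks are not independent.

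**Figure D2:**
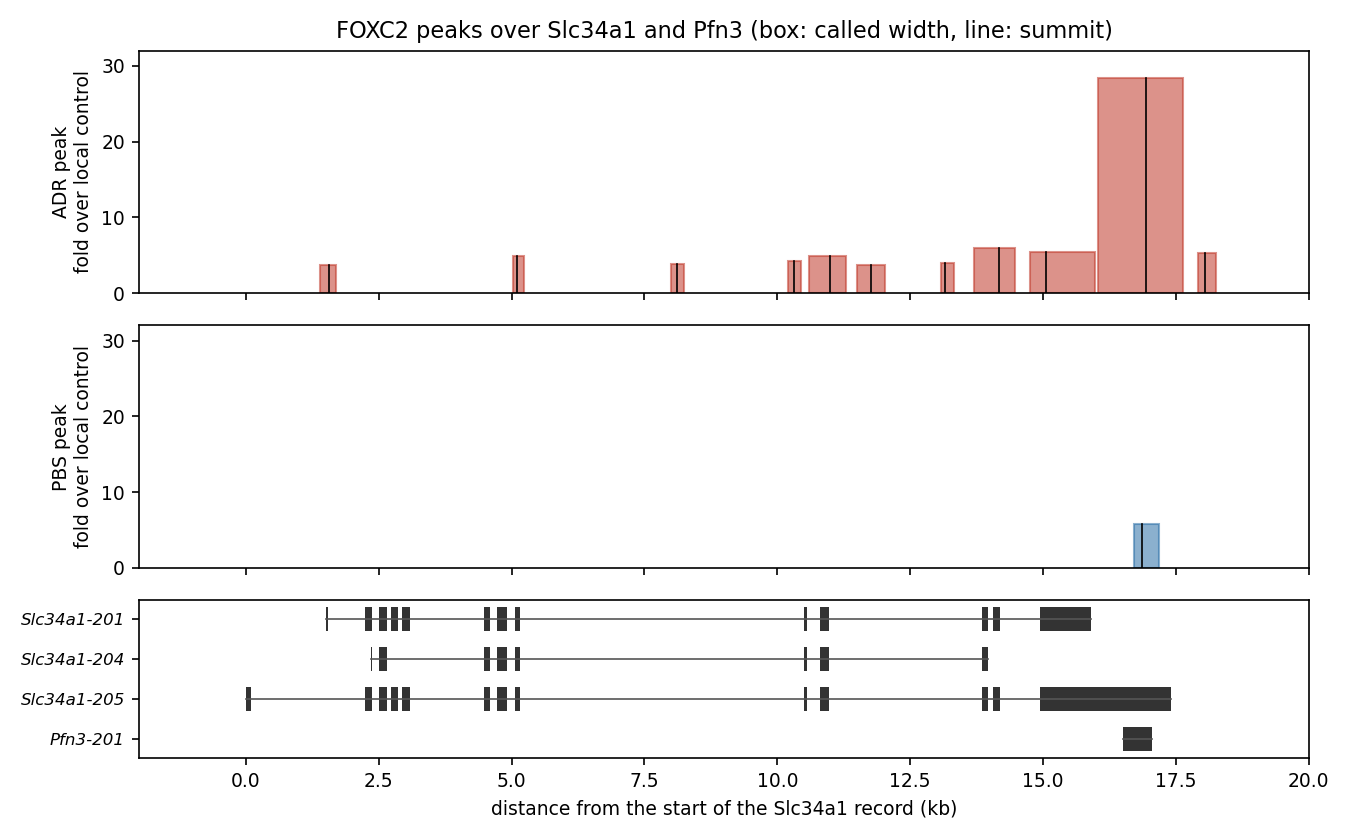
Peaks over *Slc34a1* and *Pfn3* in the ADR list (top) and the PBS list (middle), with boxes as wide as the called peak and as high as its fold over the local control, black lines at summits, and exons of the protein-coding transcripts below, by distance from the start of the *Slc34a1* record in kb. In ADR 11 boxes run from the start of Slc34a1-201 to beyond *Pfn3*, and in PBS 1 box of fold 5.75 stands at *Pfn3*.

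These peaks of ADR alone were weak. Their 10 folds ranged from 3.69 to 6.003 with a median of 4.54, against a median of 5.96 over all 12955 ADR peaks without a PBS peak. All 10 lay below the median fold of the ADR list, and 7 lay below its lowest quartile of 5.28. Their −log10 q ranged from 2.38 to 9.99, and their widths from 199 to 1231 bp. With only peaks of a fold of at least 5 kept in each list 3 of the 10 were left, with peaks of a −log10 q of at least 5 there were 4, and among the 20000 ADR peaks of smallest q there were 0. At that last setting ADR and PBS had 2 peaks each at the cluster.

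The peaks also stood close together. With gaps of at most 2 kb between neighbors, 9 ADR peaks formed a run of 10.3 kb (55406186 to 55416448), 57.3% of which was inside peaks, with a median gap of 288 bp. Of 32090 ADR runs, 6 had as many peaks, this one included, and 17 PBS runs did. With gaps of at most 1 kb the run was shortened to 5 peaks over 5.18 kb, and 51 ADR runs and 77 PBS runs had as many peaks. These limits were chosen after the positions were seen.

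Among coding genes, 133 had at least as many summits of ADR alone in their record as *Slc34a1* with its 9, and *Slc34a1* was the shortest of them. Their median length was 286 kb and the next shortest was *Timp3*, an inhibitor of matrix metalloproteinases, with 49.1 kb and 16 such summits. Of the 554 genes with at least 4 such summits, *Slc34a1* held rank 3 by their number per kb, at 0.517, after *Paxx*, a DNA end–joining factor, and *Pck1*, the cytosolic PEPCK of gluconeogenesis, with 4 each. The limit of 9 is the count of *Slc34a1* itself. Both ranks rest on the same peaks for which the genes were chosen, so they are no test.

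At *Grk6* the order of the lists was the other way. Its ADR peak (55444422 to 55445349) had a fold of 15.2 and its PBS peak (55444384 to 55445345) a fold of 21.8, with −log10 q of 40.1 in ADR and 72.8 in PBS. The log2 fold was −0.53 in ADR relative to PBS, and 19.7% of all shared intervals had a lower value. Both peaks covered the start of the *Grk6* record (ENSMUSG00000074886.11, plus strand, start 55445072), with summits 65 bp apart upstream of it. In the PBS list this was the strongest peak of the cluster, with a lower fold in 93.7% of all PBS peaks, and in the ADR list 81.5% had a lower fold.

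*F12* (ENSMUSG00000021492.15, minus strand) had a single peak, in PBS alone (55429344 to 55429949). It was 606 bp wide, stood 2551 bp upstream of the start, and its fold of 7.04 and −log10 q of 11.3 were both above those of each of the 10 peaks of ADR alone. The nearest ADR peak to the *F12* start was the intergenic one beyond *Pfn3*, 10345 bp away and so just outside the window of *F12*. For *Rgs14* (ENSMUSG00000052087.14, plus strand) the peaks of both lists had nearly the same fold, 4.14 in ADR and 4.16 in PBS, with summits 200 bp apart. They stood 6720 bp (ADR) and 6692 bp (PBS) from its start and covered instead the start of *Lman2*, which encodes a lectin of the early secretory pathway, so that this peak is counted for *Rgs14* only through the window. No peak of either list lay within 5 kb of the *Rgs14* start. The farthest peaks counted in each list were 7999 bp from the *Slc34a1* start in ADR (fold 3.84) and 6.69 kb from the *Rgs14* start in PBS, and the nearest not counted were 22.9 kb from the *Grk6* start in ADR (fold 6.003) and 19.1 kb from it in PBS (fold 3.94).

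Set among all coding genes with a peak within 10 kb in either list (13500 of 21938), 17.6% had more ADR peaks and 30.3% had fewer ADR peaks than PBS peaks. Of the 5 genes, 2 (*Pfn3* and *Slc34a1*) had more, 1 (*F12*) had fewer and 2 had equal numbers. The *Pfn3* difference of 8 peaks was the largest of the 13500, followed by 6 at *Clic3* (8 in ADR and 2 in PBS), *Pth1r* (8 in ADR and 2 in PBS) and *Tmem54* (9 in ADR and 3 in PBS). Of the 8 peaks of ADR alone counted for *Pfn3*, 0 had their summit in its own record. Their summits lay in the *Slc34a1* record, except that of the intergenic peak beyond *Pfn3*. The *Slc34a1* difference of 3 was reached by 105 genes, or 0.778%. With a 5 kb window, or at a −log10 q of at least 5, *Pfn3* had 5 ADR peaks and 1 PBS peak. Since the genes were picked for these differences, their rank is no test.

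**Figure D3:**
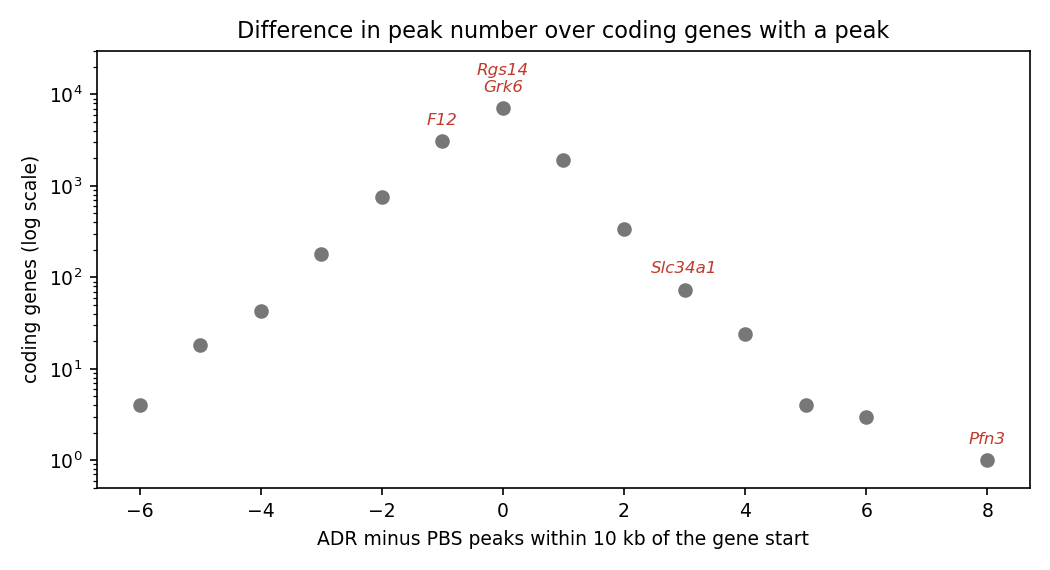
Number of coding genes (log scale) by the difference in peaks within 10 kb of the start, ADR minus PBS, over the 13500 genes with a peak in either list. *Pfn3* stands alone at 8, *Slc34a1* is among 73 genes at 3, *Rgs14* and *Grk6* are at 0, and *F12* is at −1.

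The genes around the cluster did not have more ADR peaks. Of the 9 other coding genes that start within 100 kb of the cluster, 0 had more ADR peaks, 6 had fewer and 3 had equal numbers. Among the 13500 coding genes with a peak, 17.6% had more and 30.3% had fewer. Several of the 9 share peaks, so they are not separate observations. In the 90 kb beyond the *Grk6* window there were 4 ADR peaks and 11 PBS peaks. Of these PBS peaks 8 overlapped no ADR peak, against 33.1% of all PBS peaks. Of these ADR peaks 1 overlapped no PBS peak, against 32.3% of all ADR peaks. *Dbn1*, which encodes the actin-binding protein drebrin, had 1 ADR peak and 5 PBS peaks, and their highest fold was 7.03 in ADR and 19.2 in PBS. *Prr7* had 1 ADR peak and 3 PBS peaks, and *Pdlim7*, a PDZ and LIM domain protein of actin filaments, had 1 ADR peak and 2 PBS peaks. Upstream, *Prelid1*, *Rab24* and *Mxd3*, which share their peaks, each had 1 ADR peak and 2 PBS peaks. *Lman2*, upstream, had 1 peak in each list, the same as those counted for *Rgs14*. *Dok3* and *Ddx41*, beyond *Pdlim7*, had 1 peak in each list and shared them. With windows of 50 kb the cluster had 16 ADR peaks and 14 PBS peaks.

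**Figure D4:**
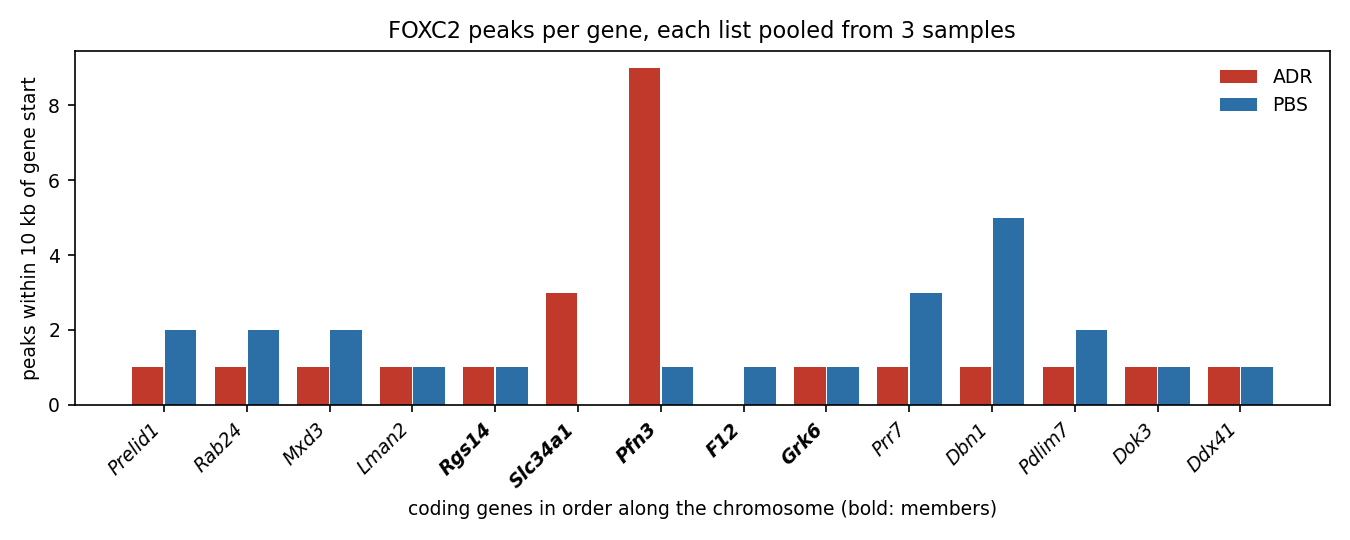
FOXC2 peaks counted in the 10 kb around the start of each coding gene from *Prelid1* to *Ddx41*, ADR left of PBS, in order along the chromosome, with the 5 genes in bold. ADR bars exceed PBS bars at *Slc34a1* (3 in ADR and 0 in PBS) and *Pfn3* (9 in ADR and 1 in PBS) and at no other gene shown.

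The motifs searched within 100 bp of the summits, as exact matches on either strand, are given beside their share of all peaks. The forkhead motif TAAACA was in 2 of the 17 peaks (11.8%, 95% Wilson interval 3.29% to 34.3%), both ADR peaks in *Slc34a1*, and in 11.7% of all peaks. The WT1 motif, GNGTGGGNG or GNGGGGGNG, was in 1, the ADR peak at *Pfn3* (5.88%, interval 1.05% to 27.0%), and in 36.2% of all peaks. The KLF motif, GGGNGTGG or GGGNGGGG, whose matches can overlap those of WT1 and did at *Pfn3*, was in 3 of 13 ADR peaks and 2 of 4 PBS peaks (29.4% of the 17, interval 13.3% to 53.1%) and in 32.1% of all peaks. The TEAD motif CATTCC was in 0 of the 17 (which allows up to 18.4% by the same interval) and in 16.9% of all peaks. The AP-1 motif TGANTCA, the LMX1B motif TAATTA and the HNF4 motif CAAAGTCCA were also in 0 of the 17, and in 8.75%, 4.05% and 0.303% of all peaks. Within 50 bp of the summits, the forkhead and WT1 motifs were in 0 of the 17 peaks and the KLF motif was in 1. Of all peaks, 6.1%, 27.6% and 20.8% had the forkhead, WT1 and KLF motifs within that distance. Overlapping peaks share sequence, and a missing match says only that these letters are not in the window. The median GC content of these windows was 53.7% in the 13 ADR peaks and 58.2% in the 4 PBS peaks, against 54.2% in all ADR peaks and 55.2% in all PBS peaks.

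The other genes of renal phosphate handling were set beside *Slc34a1*. Of the 13, 5 had more ADR peaks, 2 had fewer and 6 had equal numbers, while of all 21938 coding genes 10.8% had more and 18.7% had fewer. All of the 13 but *Kl* had a peak within 10 kb, while 8438 of all coding genes had none. Of the 13500 coding genes with a peak, 17.6% had more and 30.3% had fewer. The median difference was 0, as over all coding genes. *Pth1r*, the parathyroid hormone receptor, had 8 ADR peaks and 2 PBS peaks. *Pdzk1*, a scaffold of brush border transporters, had 2 ADR peaks and 0 PBS peaks, and *Fgfr1*, a receptor through which FGF23 acts, had 4 ADR peaks and 2 PBS peaks. The transporters *Slc34a2* (1 in ADR and 0 in PBS) and *Slc20a1* (2 in ADR and 1 in PBS) had 1 more in ADR, while *Slc34a3* had 2 and *Slc20a2* had 4 in each list. *Xpr1*, the phosphate exporter, had 1 ADR peak and 2 PBS peaks, *Cyp24a1*, which breaks down active vitamin D, had 0 ADR peaks and 1 PBS peak, and *Kl*, the coreceptor of FGF23, had 0 peaks in either list.

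*Slc34a1* is 1 of the 12 proximal tubule markers examined. Of the 11 others, 4 (*Slc5a12*, *Lrp2*, *Slc27a2* and *Slc13a3*) had more ADR peaks, 0 had fewer and 7 had equal numbers, beside the 10.8% with more and 18.7% with fewer among all coding genes. They had 8 ADR peaks and 4 PBS peaks in all and 0 to 2 per gene in either list. Of these, *Slc5a2*, *Cubn*, *Slc22a6*, *Slc22a8* and *Kap* had 0 peaks within 10 kb in both lists. Inside the gene records, 3 of the 11 had more summits of ADR alone than of PBS alone, as did 2817 of all 21938 coding genes. The *Cubn* record of 215.5 kb went the other way. It held 8 ADR summits, 2 of ADR alone, and 9 PBS summits, 3 of PBS alone. A peak at a marker gene does not measure how many cells of that type were sorted, and the part of such cells in the *Slc34a1* peaks was not tested.

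The families of the other genes were counted in the same way. The other profilins had 4 ADR peaks and 6 PBS peaks (*Pfn1*), 2 in each list (*Pfn2*) and 1 in each list (*Pfn4*), and none of their folds reached the 28.4 of *Pfn3*, the highest being 9.86 in ADR and 13.2 in PBS at *Pfn1*. Of the 5 other contact system genes, *Serping1*, the C1 inhibitor, had 1 peak in each list, and *F11*, *Klkb1*, *Kng1* and *Kng2* had 0. Of the hepatocyte markers other than *F12*, *Alb* and *Apoa1* had 1 ADR peak and 0 PBS peaks each and the other 3 had 0 in both lists. Among the kinases, *Grk5* had 1 ADR peak and 4 PBS peaks around its start but 18 ADR summits and 10 PBS summits in its record of 206 kb, *Grk2* had 2 in each list, *Grk4* had 1 in each list, and *Grk1* and *Grk3* had 0. Of the RGS proteins of the same family as *Rgs14*, *Rgs12* had 2 ADR peaks and 0 PBS peaks, and *Rgs10* had 1 in each list. The endothelial markers, as another cell type of the glomerulus, had more ADR peaks in 0 of 8 genes and fewer in 2, beside the same shares of all coding genes, and 4 of the 8 had no peak in either list.

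By the number of peaks and the highest log2 fold in each list, the coding genes most like *Slc34a1* outside the region were *Ldhd*, *Rnase11*, *Gm11011*, *Rflnb* and *Adcy5*, over 4 values per gene. Each had 3 ADR peaks and 0 PBS peaks, with a highest ADR fold between 4.19 and 7.31, against 4.87 at *Slc34a1*. The Euclidean distance was 0.083 for *Ldhd* and 0.59 for *Adcy5*.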

How the data were processed

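FOXC2 ChIP-seq was measured in sorted podocytes of ADR- and PBS-treated mice, 3 samples each. The authors trimmed the 50-bp single-end reads, aligned them to GRCm38 (also named in the submitters' processing notes), called narrow peaks with nf-core/chipseq and merged all samples of a group. Neither version nor threshold of the caller is given in the sources used here. In the 2 deposited lists, the authors' fold over the local control is a ratio, the deposited −log10 q is the caller's value, and the deposited summit offset is in bp. The score, the p and the names were not used. The names carry a single sample's label although the lists are pooled. Depth is unknown.

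Peaks within 10 kb of a gene record start (GENCODE M21, 21938 coding gene records on chromosomes 1 to 19, X and Y) were counted with Python 3.11.15, NumPy 2.4.6 and SciPy 1.17.1 and plotted with matplotlib 3.10.9. Overlap meant at least 1 bp. Bases came from the RefSeq copy of the GRCm38 reference. Intervals are 95% Wilson. Counting was tested on simulated data. No test between conditions was run. The genes, gene lists and motifs were chosen with earlier results of these data known. The genes to be named were the 5, coding genes near their peaks, the lists, and the 5 most like *Slc34a1*. Genes outside this rule (*Clic3*, *Tmem54*, *Timp3*, *Paxx*, *Pck1*) were named after their values were seen. Alternatives were other windows, any transcript start, stricter q, fold and number of peaks, stricter overlap, centered folds and shorter motif windows. Summits inside the *Slc34a1* record were added after seeing the data. The study's other assays were not analysed here. Results at some items are not reported here.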

Additional observations from a re-analysis of the deposited data

How the results depend on the processing

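No paired analysis was possible because the samples of a group were merged into 1 list. The 13 ADR peaks of the cluster became 7 with a 5 kb window, 7 at a −log10 q of at least 5, 5 at a fold of at least 5 and 2 among the 20000 peaks of smallest q. The 4 PBS peaks became 14 with a 50 kb window and 2 among the 20000. The difference of 9 peaks became 4, 2, 4, 2 and 0 with the 5 kb window, the 50 kb window, the q limit, the fold limit and the 20000 peaks. Intervals with both lists numbered 5 with the 50 kb window and 1 among the 20000, against 3. Intervals of ADR alone numbered 5, 5, 3 and 1 with the 5 kb window, the q limit, the fold limit and the 20000, against 10. They are not all from those 10, of which 4 passed the q limit and 0 the limit of 20000, since the PBS peak at *Rgs14* failed the q limit and that at *Pfn3* the limit of 20000. The single interval of PBS alone became 9 with the 50 kb window, 2 with any transcript start and 2 with 50% overlap. The median log2 fold difference, ADR minus PBS, over the 3 shared intervals was −0.01 and has no direction of its own, since it was 0.89 with the 5 kb window, the q limit or the fold limit, which drop *Rgs14* from the shared intervals, −0.41 with the 50 kb window, −0.53 among the 20000, −0.27 with 50% overlap and −0.052 after centering. Of 48 alternatives for single genes and motifs, 23 stayed within 1.5 times and 25 did not. *Slc34a1* had 11 ADR peaks and 1 PBS peak within 10 kb of any transcript start. Within 10 kb of the start of its record alone, it had 0 of either at the q limit. Unknown depth and pooling limit every comparison.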
